A study of Rattus norvegicus with 5 samples.

Results

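When chromosomes 1 to 20 were cut into 25592 consecutive windows of 100 kb, the most acetylated windows were the 1229 with the highest H4K5Ac signal over input, and these are called members here. Acetylated histone H4 lysine 5 (H4K5Ac) was mapped in the dorsal striatum of male Sprague-Dawley rats by ChIP-Seq, in which fragments bound by an antibody are sequenced as tags and the tag number at a place measures H4K5Ac binding there. Rats were given saline or methamphetamine (METH) for 2 weeks and were then challenged with saline or 5 mg/kg of METH, 2 h before euthanasia. The groups were SS (saline then saline, 4 animals pooled), SM (saline then METH, 3 animals), MS (METH then saline, 3 animals) and MM (METH then METH, 4 animals). Each group was 1 library, and 1 input library of untreated chromatin DNA from 4 pooled samples, made without the antibody, served them all. Because of this, a difference between groups cannot be told apart from a difference between libraries, and no p-value between groups was computed.

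Windows with fewer than 200 input tags were left out, which kept 24584 windows. For each of these, the tags of SS, SM, MS and MM were added and divided by all their tags on chromosomes 1 to 20, and this share was divided by the share of the input tags in the same window. A value of 1 is therefore the mean of these chromosomes. The 5 percent of windows with the highest value were taken, and they cover 122.9 of 2458.4 Mb. These values chose the windows, so their height over input is a description and not a finding. The libraries held 8473714 (SS), 12358680 (SM), 5728788 (MS), 9107139 (MM) and 17471499 (input) tags on chromosomes 1 to 20, which gave the median kept window 310 (SS), 446 (SM), 207 (MS), 332 (MM) and 698 (input) tags. Intervals given here are exact 95% intervals and cover counting error only.

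Acetylation of lysines in the tail of histone H4 removes their positive charge and loosens the contact of the nucleosome with DNA. H4K5Ac is found at the promoters and enhancers of active genes, and also at a lower level across transcribed stretches and wider open domains. Mammalian chromosomes alternate between open, gene-rich, early-replicating stretches and closed, gene-poor ones over stretches of about a megabase. Windows of 100 kb are shorter than such stretches, but they measure H4K5Ac over more than single promoters. Coordinates are those of the rn4 build that the submitters' processing notes name. A gene annotation of that build was not used here, so windows are named by position and not by gene.

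Over all kept windows the median H4K5Ac over input was 0.910, and the lowest member was at 1.40. The 3 members just inside the limit were chr20:4800001-4900000, chr5:146200001-146300000 and chr1:95500001-95600000, with ratios of 1.3995, 1.3995 and 1.3993. The 3 windows just outside it, chr4:75900001-76000000, chr20:52400001-52500000 and chr1:186000001-186100000, had 1.3992, 1.3991 and 1.3987. The limit falls on a continuous slope, with no gap between members and other windows. Counting error blurred it: the interval of the ratio lay wholly above the lowest member's ratio for 571 members and included it for the other 658, and it reached that ratio for 1187 windows that were not members. Members had a median ratio of 1.501 (middle 50 percent 1.44 to 1.59). Among the members, 608 were below 1.5 and 19 reached 2.

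**Figure D1:**
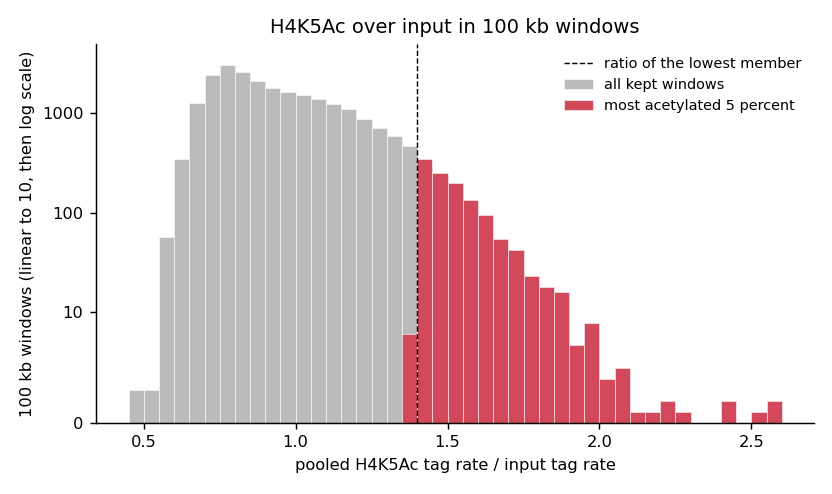
Number of 100 kb windows (vertical axis, linear up to 10 and on a log scale above) by the ratio of the pooled H4K5Ac tag rate to the input tag rate, each relative to its tags on chromosomes 1 to 20 (horizontal axis), for all 24584 kept windows (grey) and the 1229 members (red); the dashed line is the lowest member at 1.40. The members are the upper tail of a single continuous distribution, with 19 windows at 2 or more.

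The 5 highest windows stood far above the limit in every library. The highest, chr9:85200001-85300000, had 1368 SS, 1751 SM, 959 MS and 1511 MM tags against 1062 input tags, a pooled ratio of 2.58 (2.41 to 2.76). It lay on a chromosome on which few other windows were members. Next came chr15:46600001-46700000 with 1155 SS, 1429 SM, 738 MS and 1161 MM tags against 858 input tags, a ratio of 2.56 (2.38 to 2.76). In both of these windows SM had the lowest rate over input of the 4 libraries, 2.33 and 2.35, while SS had 2.66 and 2.78. The third, chr3:9700001-9800000, had 1491 SS, 2174 SM, 1150 MS and 1697 MM tags against 1270 input tags, a ratio of 2.51 (2.36 to 2.67). On the same chromosome, chr3:156900001-157000000 held 1346, 1956, 1087 and 1499 tags in that order of libraries against 1181 in input, a ratio of 2.44 (2.29 to 2.60). In these windows of chromosome 3, MS stood highest over input, at 2.76 and 2.81, and SS and SM were nearly equal. The fifth, chr8:66600001-66700000, held 1378, 1943, 872 and 1423 tags against 1129 in input, a ratio of 2.44 (2.29 to 2.60), and here SS was highest at 2.52 and MS lowest at 2.36. In the windows of chromosomes 9 and 3 the order from highest to lowest was MS, MM, SS and SM. In those of chromosomes 15 and 8, SS was highest. These differences between libraries were not tested. Each library was more than 2.3 times its input rate in all 5.

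Within a member, most of the window was above input. When each member was divided into 10 kb cells, 89.7% of these cells (11024 of 12290) had a pooled ratio above 1, compared with 36.9% over all kept windows (24574 of full length). In 561 members (45.6%) all 10 cells did, compared with 989 of all kept windows (4.02%). Of the 100 cells of 1 kb in a member, a median of 74 were above input, compared with 37 in all kept windows. Strong 1 kb cells, with at least 3 times the mean of 13.9 pooled ChIP tags per kb, numbered 18 in the median member and 70 at most. Only 3 members had none, while the median kept window had 0 and 53.2% of kept windows had none. The limit for strong cells is not corrected for input, and members were rich in input tags. Among the 4168 input-rich windows that were not members, defined in the next paragraph, the median was 5 strong cells and 12.1% had none. There 56.3% of 10 kb cells and a median of 53 of the 1 kb cells were above input, and in 245 windows (5.88%) all 10 of the 10 kb cells were. The tags that chose the members enter all these counts, which are a description. Across the 1229 members, the ratio and the number of strong cells rose together (Pearson's r = 0.62, a description across windows that share the same libraries, since the same tags enter both).

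To set the strongest cells apart from the rest of a window, the 1 kb cells of each member were ranked by the tags of SS and MM and then measured with those of SM and MS. The 10 cells that ranked highest held a median of 19.8% of the tags of SM and MS in the window, at a median of 2.30 times input. The other 90 cells had a median of 1.41 times input, and they were above 1 in 1229 of 1229 members. The tags of SM and MS were part of the sum that chose the members, so only the ranking used other tags and these levels are a description. In the same way, the 90 cells had a median of 0.871 over all kept windows and of 1.05 in 4168 windows that were not members but belonged to the 20 percent of kept windows with the most input tags. The 90 cells were above 1 in 30.7% of all kept windows (7553 of 24574) and in 61.6% of these input-rich windows (2566 of 4168). Over all members, 32.2% of the tags above input lay in the top 10 cells, compared with 59.0% over the input-rich windows that were not members. In the 5 highest windows, the 90 cells outside the top 10 were at 2.18 to 2.30 times input, and 45 to 69 of the 100 cells were strong.

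Tags that played no part in choosing a window gave nearly the same level. When members were chosen on the even-numbered 1 kb cells and measured on the odd-numbered ones, the 1229 windows chosen had a median ratio of 1.51 in the cells that chose them and of 1.49 in the others, where the median of all windows was 0.913. In the odd cells, 1228 of these 1229 windows were above 1 and the lowest was at 0.961. The highest 5 percent by odd cells, 1230 windows, shared 836 windows with them, which is 68.0% of either set, so the level recurred in other tags more closely than the membership did. When each library was in turn kept out of the choice and then measured at the windows chosen by the other 3, it was above its input rate in 1229 of 1229 windows. Its rate over input was 1.49 for SS (1.48 to 1.49), 1.54 for SM (1.53 to 1.54), 1.57 for MS (1.57 to 1.58) and 1.54 for MM (1.53 to 1.54). The input tags entered both the choice and these rates. Of all 24584 kept windows, 15088 (SS) to 15406 (SM) were at or below the library's input rate.

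In the full set of members, no library was at or below its input rate in any window. The same tags and input chose the members at a pooled ratio of 1.40 or more, so this is a description. Of all 24584 kept windows, 15088 (SS), 15406 (SM), 15241 (MS) and 15381 (MM) were at or below the library's input rate. SS ranged over windows from 1.19 to 2.78 times input with a median of 1.48, SM from 1.198 to 2.43 with a median of 1.51, MS from 1.21 to 2.81 with a median of 1.55, and MM from 1.22 to 2.73 with a median of 1.51. The ranges of the 4 libraries overlapped almost completely. Members held 6.57% of the input tags and 9.88% of those of SS (9.86 to 9.90%), 10.19% of those of SM (10.18 to 10.21%), 10.4% of those of MS (10.39 to 10.44%) and 10.16% of those of MM (10.14 to 10.18%). The same number of windows at the other end, the least acetylated 5 percent, had medians of 0.700, 0.641, 0.623 and 0.661 in SS, SM, MS and MM. SS thus had the narrowest span between the ends and MS the widest.

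**Figure D2:**
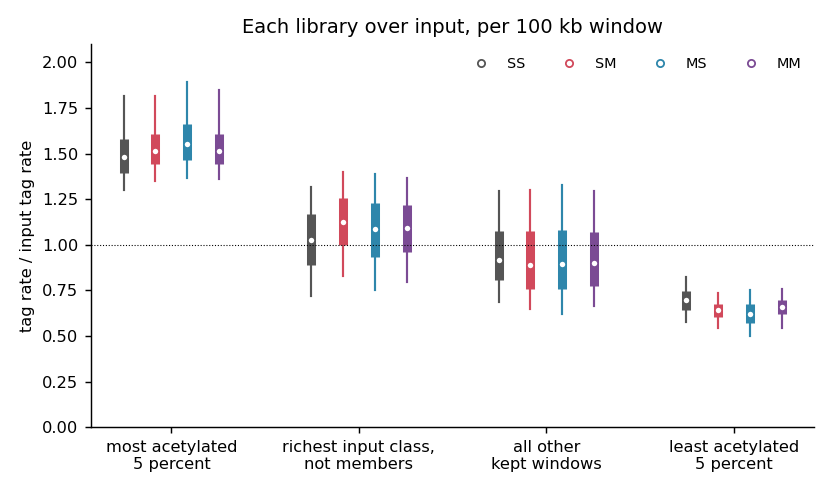
Tag rate over input tag rate, each relative to the library's tags on chromosomes 1 to 20, in each 100 kb window (vertical axis, from 0) for SS, SM, MS and MM in the most acetylated 5 percent, the windows of the richest input class (20 percent) that are not members, all other kept windows and the least acetylated 5 percent. All other kept windows are the 23355 that are not members, and they include the groups drawn on either side. Circles are medians over windows, thick bars the middle 50 percent and thin lines the 5th to 95th percentile, which are spreads over windows and not replicate errors; at the members, medians run from 1.48 (SS) to 1.55 (MS).

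Members lay next to each other more often than windows at large. A member in the adjoining window on either side was present for 608 of 1229 members (49.5%). Of the adjoining kept windows, counted once for each member they adjoin, 29.7% were members (718 of 2417), against 5% of all kept windows. Yet runs of adjoining members were short. They formed 870 blocks, of which 621 were a single window, 178 were 200 kb long, 45 were 300 kb, 16 were 400 kb, 7 were 500 kb and 3 were 600 kb. No unbroken block reached 1 Mb. The least acetylated 5 percent formed a similar number of blocks, 907, with 42.6% of windows beside another and a longest run of 9 windows.

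Around the members the level declined gradually. Windows 100 kb away had a median ratio of 1.28, and 96.5% of them were above the median of all kept windows. At 200 kb the median was 1.18, at 500 kb 1.11, at 1000 kb 1.05, at 2000 kb 0.994 and at 5000 kb 0.946, close to the 0.910 of all kept windows. The windows at each distance include members, whose ratios chose them, and this lifts the medians. Among windows that were not members, the median was 1.201 at 100 kb, 1.064 at 500 kb and 0.923 at 5000 kb. The share of members at these distances went from 29.7% to 17.7%, 12.1%, 10.4%, 7.39% and 5.37%, and at 10000 kb it was 8.23%, with a median ratio of 0.940. Input density of the surroundings moved in the same direction, from a median of 923 tags per window at 100 kb to 763 at 5000 kb, and its part in the profile was not tested. Over all kept windows, Pearson's r between the ratios of windows 100 kb apart was 0.69 (24044 pairs), 0.22 at 1000 kb and 0.053 at 5000 kb, a description of windows that share their libraries. Each library showed the same decline, with members counted: over input, SS went from 1.26 at 100 kb to 1.07 at 1000 kb, SM from 1.32 to 1.12, MS from 1.32 to 1.11 and MM from 1.30 to 1.11.

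**Figure D3:**
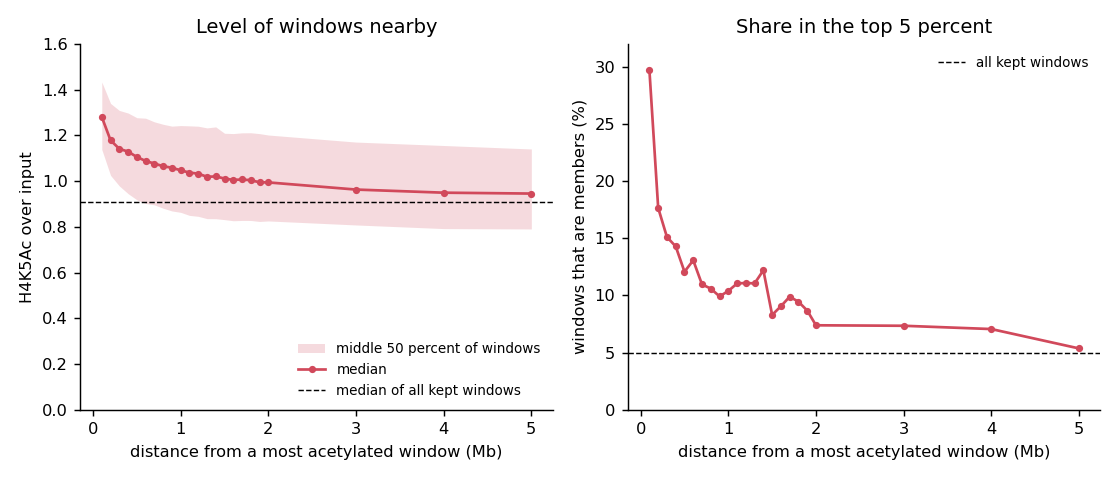
Left, pooled H4K5Ac over input of kept windows by their distance from a member in Mb (line and points, median; band, middle 50 percent of windows), with the median of all kept windows dashed; right, the percent of windows at each distance that are members themselves, with the 5% of all kept windows dashed. Members are counted among the windows at each distance, in the median and the band. The median goes from 1.28 at the adjoining window to 0.946 at 5 Mb, and the share of members from 29.7% to 5.37%, and the 8.23% at 10 Mb lies beyond the axis.

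The longest blocks were the 3 of 600 kb, on chromosomes 10, 16 and 19. Block chr10:86000001-86600000 comprised 6 members with a median ratio of 1.55, and SS, SM, MS and MM stood at 1.543, 1.668, 1.628 and 1.598 times input. The 6 members of chr16:19000001-19600000 had a median of 1.53 and library values of 1.44, 1.59, 1.55 and 1.52, and those of chr19:50400001-51000000 had a median of 1.46 and values of 1.43, 1.59, 1.54 and 1.57. Among the 7 blocks of 500 kb, the highest by median ratio were chr10:14700001-15200000 (1.56, with 1.55, 1.67, 1.65 and 1.70 in the libraries) and chr10:62400001-62900000 (1.54, with 1.48, 1.53, 1.66 and 1.53). SS was the lowest library in each of these blocks, and the highest was SM in the 3 blocks of 600 kb, MM in the first block of 500 kb and MS in the second.

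Members were also joined across gaps, which lengthens groups by construction. When members up to 1 Mb apart were joined, there were 426 groups, and the 100 groups that spanned 1 Mb or more held 657 members (53.5%). The group with the most members, chr20:2800001-8100000, had 19 among 53 kept windows over 5.3 Mb, and all its windows together were at 1.1995 (SS), 1.34 (SM), 1.32 (MS) and 1.32 (MM) times input. The next, chr12:32300001-37700000, had 18 members, followed by chr3:7500001-13300000 with 17, which holds the third highest window, and chr13:44300001-49800000 with 17. Among the 20 groups with the most members, the densest was chr7:9700001-11700000, with 14 of 20 windows as members and its lowest window still at 1.23. On a fixed grid of 1 Mb, 665 of 2568 bins (25.9%) had a member, 23 bins had 5 or more, and the most was 7 of 10, in chr7:10000001-11000000, chr7:138000001-139000000 and chr10:86000001-87000000.

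Chromosomes differed in their share of members. On chromosome 10, 11.4% of kept windows were members (123 of 1080, interval 9.56 to 13.4%), on chromosome 12 it was 11.0% (48 of 437, 8.21 to 14.3%) and on chromosome 20 it was 9.01% (48 of 533, 6.71 to 11.8%). These 3 chromosomes had 17.8% of the members and 8.34% of the kept windows. The lowest shares were on chromosome 9 with 2.99% (33 of 1105, 2.06 to 4.17%), chromosome 2 with 3.03% (75 of 2472, 2.39 to 3.79%) and chromosome 13 with 3.13% (34 of 1088, 2.17 to 4.34%). The intervals take windows as independent, which neighbouring windows were not. The highest single window of all lay on chromosome 9, which had the lowest share. Within 5 Mb of a chromosome's ends, 5.02% of windows were members (96 of 1911), compared with 5.00% elsewhere, but single chromosomes differed, with 15 such members on chromosome 7, 14 on chromosome 10 and 0 on chromosomes 9 and 11.

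**Figure D4:**
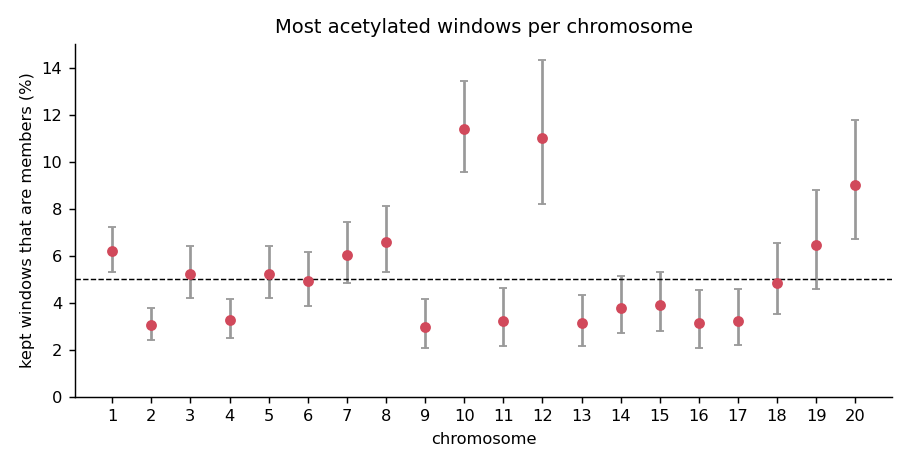
Percent of kept 100 kb windows that are members (vertical axis, from 0) for each of chromosomes 1 to 20, with exact binomial 95% intervals that take windows as independent; the dashed line is the 5% of all kept windows. Chromosomes 10 (11.4%) and 12 (11.0%) stand highest and chromosomes 9 (2.99%) and 2 (3.03%) lowest.

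The members were also rich in input tags, although input was the denominator of the ratio. Their input tags per window ranged from 205 to 1442 with a median of 962, which was 1.38 times the median of 698 over all kept windows, and 88.8% of members (1091) were above that median. When kept windows were divided into 5 equal classes by input, members made up 1.06% of the poorest class (52 windows), 0.915% of the next (45), 2.26% of the middle one (111), 5.57% of the fourth (274) and 15.2% of the richest (747 windows, 60.8% of all members). The least acetylated windows showed the reverse, with 42.3% of them in the poorest class and 1.14% in the richest. By definition, the 10 kept windows with more input tags than any member lay below the limit, and the highest of them, at 1.3992, was just outside it. At the other end, 50 members had fewer than 500 input tags.

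Chromosomes also differed in input density. On chromosome 12, 51.9% of kept windows were in the richest class, on chromosome 10 it was 37.5% and on chromosome 2 it was 7.85%. Among the windows of the richest class alone, members made up 13.7% on chromosome 12 (9.47 to 18.8%) and 17.01% on chromosome 2 (12.01 to 23.1%), intervals that include the 15.2% of this class over all chromosomes. So did the interval of chromosome 20, at 20.9% (14.4 to 28.8%). Intervals lay above that value on chromosomes 10 with 21.5% (17.6 to 25.8%) and 7 with 20.8% (16.3 to 25.9%). They lay below it on chromosomes 4 with 11.1% (7.88 to 15.004%), 9 with 9.42% (5.68 to 14.5%), 11 with 5.98% (2.44 to 11.9%) and 17 with 6.49% (3.396 to 11.1%).

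The study asked how gene expression and histone acetylation change with METH, and the part addressed here is H4K5Ac binding. The choice of members used the sum of the 4 libraries and not their split. Summed over the members and relative to all tags of chromosomes 1 to 20, SM was 1.032 times SS (1.029 to 1.035), MS was 1.054 times SS (1.050 to 1.057) and MM was 1.029 times SS (1.026 to 1.032). MM was 0.976 times MS (0.973 to 0.979), both pretreated with METH, as SS and SM were both pretreated with saline. The 3 comparisons with SS share the SS library. In the least acetylated 5 percent, these ratios lay on the other side of 1. There SM was 0.925 times SS, MS 0.899 times and MM 0.949 times, while MM was 1.055 times MS. A library's own counting error still enters the sum that chose the members. Without SM in the choice SM was 1.014 times SS, and without SS in the choice SM was 1.045 times SS. The windows chosen also changed, with 55.4% and 63.6% of them in the richest input class against 60.8%, and the part of each was not tested. SM was above SS in 767 of 1229 members (62.4%), MS in 890 (72.4%) and MM in 783 (63.7%), while MM was above MS in 457 (37.2%). Over all kept windows the same shares were 43.4%, 45.6%, 45.8% and 51.0%. Within the richest input class they were 77.1%, 77.6%, 73.4% and 37.3% at members. At the windows of that class that were not members they were 84.7%, 72.3%, 76.4% and 52.1%. Summed by chromosome, the members were higher in MS and in MM than in SS on 20 of 20 chromosomes and higher in SM than in SS on 17, and MM was above MS on 1 of 20. Some of these ratios had intervals that included 1, such as MM relative to SS on chromosome 17, at 1.001 (0.981 to 1.021). So did MS relative to SS there, at 1.014 (0.992 to 1.037), and MM relative to MS on chromosome 15, at 1.005 (0.987 to 1.024). Chromosomes of the same libraries are not replicates, and the count by chromosome was not made for other windows.

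Part of these ratios went with input density. In windows that were not members, SM was 0.885 times SS in the poorest class by input and 1.096 times SS in the richest, and MS went from 0.908 to 1.055 and MM from 0.912 to 1.060. Compared with other windows of the same class, members did not stand higher in SM throughout. In the richest class, SM was 1.058 times SS at the 747 members (1.054 to 1.061) and 1.096 at the 4170 other windows (1.095 to 1.098). In the fourth class the values were 0.986 and 1.023, in the middle one 0.967 and 0.964, and in the 2 poorest classes the members were higher, at 0.957 against 0.885 and 0.933 against 0.902. MM relative to SS crossed over in the same way, with 1.042 at members and 1.060 at other windows of the richest class, and 0.973 against 0.912 in the poorest. When members were chosen as the top 5 percent within each of 10 equal classes by input, which spreads them evenly over input density, SM was 0.983 times SS (0.980 to 0.986), below 1, and MM was 0.999 times SS, with an interval that included 1 (0.996 to 1.003).

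In MS relative to SS and in MM relative to MS, the members stayed on 1 side of the other windows in every class. Both comparisons contain the single MS library, so they are not independent of each other, and MM was 0.997 times SM over the members (0.994 to 0.9997). Members were higher than other windows in MS relative to SS in all 5 classes, from 1.009 against 0.908 in the poorest to 1.066 against 1.055 in the richest, so that the gap was narrower where input was dense. The members' interval included 1 in the 2 poorest classes (0.984 to 1.035 and 0.996 to 1.041). With the choice within 10 classes by input, MS was 1.027 times SS. MM relative to MS was between 0.964 and 0.978 at the members of the 5 classes and between 1.001 and 1.005 at the other windows, a nearly level line in both. It was 0.972 in the 307 members with the highest ratios to input and 0.979 in the 308 with the lowest. These are differences of a few percent between single libraries, of which MS was the shallowest, and no replicate shows how far 2 libraries of the same group would differ.

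**Figure D5:**
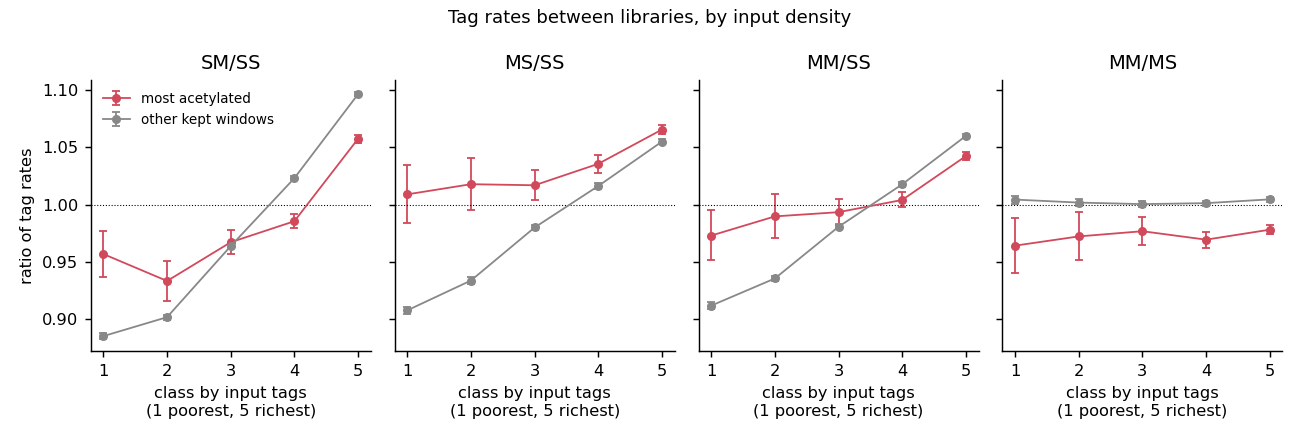
Ratio of tag rates between libraries, each relative to its tags on chromosomes 1 to 20 (vertical axis, not from 0; panels SM/SS, MS/SS, MM/SS and MM/MS) by input class of kept windows (horizontal axis, 5 equal classes by input tags, 1 poorest to 5 richest), for the members (red) and the other kept windows (grey), with exact 95% intervals for counting error. In SM and MM relative to SS the red and grey lines cross, in MS relative to SS the members lie above in every class, and in MM relative to MS they lie below, at 0.964 to 0.978.

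Single members rarely differed much between libraries. With a fold of 1.2 as the limit, 45 members were higher in SM than in SS (3.66%) and 30 were lower (2.44%), where 5.84% and 14.1% of all kept windows were. In MS relative to SS, 59 were higher (4.80%) and 7 lower (0.570%), where 4.42% and 12.5% of all kept windows were. In MM relative to SS, 15 were higher (1.22%) and 11 lower (0.895%), against 4.08% and 9.92%, and in MM relative to MS, 7 were higher (0.570%) and 26 lower (2.12%), against 7.01% and 4.97%. The shares of members were thus at or below the background except for the higher windows of MS, which were near it. A member holds more tags than a kept window at large, with a median of 687 against 310 in SS, so the counting error of its ratio is smaller, and the part of this in the counts was not tested. These counts leaned on which libraries chose the members. Without SM in the choice, 24 members were higher and 57 lower in SM than in SS. In MM relative to SS, 34 were higher and 6 lower without SS in the choice. Without SM, and also without MM, 12 were higher and 17 lower in MM than in SS. The scaling between libraries mattered too: with libraries scaled by the windows below the median ratio, 129 members were higher (10.5%) and 18 lower (1.46%) in SM than in SS, where 11.0% and 8.48% of all kept windows were. On that scale MS had 193 members above SS (15.7%) and 2 below it (0.163%), against 10.6% and 7.53% of all kept windows. MM had 37 above SS (3.01%) and 6 below it (0.488%), against 6.83% and 7.11%, and 4 were higher (0.325%) and 51 lower (4.15%) in MM than in MS, against 5.10% and 7.05%. Windows of the richest input class that were not members passed the fold on the higher side more often than members, in 17.5% for SM, 7.87% for MS and 8.35% for MM relative to SS. On the lower side they passed in 0.288% for SM, 0.911% for MS and 0.384% for MM relative to SS, and in MM relative to MS 3.31% were higher and 1.49% lower. At a fold of 1.5, 1 member was lower in SM than in SS, where 0.598% of all kept windows were, and 0 were higher, where 0.106% were. For MS relative to SS, 0 members were past this fold, with 0.0529% of all kept windows higher and 0.846% lower. For MM, 0 were past it relative to SS (0.0692% higher and 0.439% lower among all kept windows) and 0 relative to MS (0.305% and 0.122%).

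The 8 members at the extremes of these ratios included 5 with fewer than 500 input tags. Between SM and SS, the highest was chr3:167300001-167400000 with 507 tags in SM and 247 in SS (1.41, 1.21 to 1.65), and the lowest was chr17:81800001-81900000 with 262 and 279 (0.644, 0.542 to 0.765). In the latter, SS stood highest over input at 1.96 and SM lowest at 1.26, with 1.62 in MS and 1.66 in MM between them. Between MS and SS they were chr12:19600001-19700000 with 566 and 613 tags (1.37, 1.22 to 1.53) and chr6:76000001-76100000 with 133 and 283 (0.695, 0.561 to 0.857). Between MM and SS they were chr12:16100001-16200000 with 721 and 518 tags (1.30, 1.16 to 1.45) and chr1:211800001-211900000 with 259 and 345 (0.699, 0.592 to 0.823). In both windows of chromosome 12, SS had the lowest rate over input of the 4 libraries, at 1.22 and 1.21. Between MM and MS they were chr2:120800001-120900000 with 729 and 361 tags (1.27, 1.12 to 1.45) and chr18:51100001-51200000 with 173 and 148 (0.735, 0.587 to 0.922). These are the ends of lists of 1229 ratios, picked for their size.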

How the data were processed

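H4K5Ac ChIP-Seq was analysed in 4 pooled ChIP libraries (SS, SM, MS, MM) and 1 input library. Gerald placed the first 41 bases of the reads on the genome, per the authors' methods (Gerald version and any removal of repeated tags: not given in the sources used here). Build rn4 is named in the submitters' processing notes. The authors deposited counts: whole numbers of tags in the 1 kb around each 100 bp step, neither normalized nor corrected for input. Taking 1 step per kb gave 1 kb cells that do not overlap, and these were summed into 100 kb windows. Because the tag number of a window is a count, ratios were given exact conditional binomial intervals and shares exact (Clopper-Pearson) ones, at 95%. The intervals treat tags as independent, which PCR copies are not. The choice of windows, the fold limit and the intervals were tested on simulated counts that carried counting error alone. These had no PCR copies and no added spread between libraries, so they cannot show how the intervals fare with either.

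The members, the named windows and the comparisons were chosen with earlier results of these data known. Named windows are the 5 highest, the 3 on either side of the limit, the 5 longest blocks (ties of length taken by median ratio), the highest and lowest member of each library comparison, and the 3 chromosomes at either end. Chromosomes 4, 7, 11 and 17, the joined groups and the 1 Mb bins were named after their values were seen. Alternatives varied the size of the set, grid, window size, input minimum, library weights, libraries used, input density in the choice, the tags used to choose and to measure, scaling, limits on single cells, fold and gap. The gene tables at hand are of another assembly, GRCr8, so no gene or sequence was matched to a window. Chromosome X and the mitochondrial genome were outside the choice. Python 3.11.15 with NumPy 2.4.6, SciPy 1.17.1, pandas 2.3.3 and matplotlib 3.10.9 were used.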

Additional observations from a re-analysis of the deposited data

Results flagged for a closer look

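Summed over the most acetylated windows, the METH-challenged library was above the saline-challenged one after saline pretreatment and below it after METH pretreatment. SM was 1.032 times SS, while MM was 0.976 times MS, so that the first ratio was 1.06 times the second. Each group is 1 library, and the difference was not tested. In the least acetylated 5 percent, SM was 0.925 times SS and MM was 1.055 times MS, each on the other side of 1. By input class, SM/SS was above 1 at the members of the richest class (1.058) and below 1 in the other 4 (0.933 to 0.986), while MM/MS was below 1 in all 5. In the windows of the richest class that were not members, the ratios were 1.096 and 1.005, so a gap between them was not particular to the members. With members chosen within 10 equal classes by input, both ratios were below 1, at 0.983 and 0.972.

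Chromosome X was not among the chromosomes from which members were chosen. Of its 1288 windows with 200 or more input tags, 34 (2.64%) reached the ratio of the lowest member. The highest, chrX:48800001-48900000, had 457 SS, 537 SM, 326 MS and 449 MM tags against 399 input tags, a ratio of 2.17. The median input of the kept windows of X was 269 tags, so that their ratios carry more counting error than those of the members.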

How the results depend on the processing

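With 1 library per group there is no replicate error, and at 207 tags in the median window of MS a fold of 1.2 is within reach of counting error. No paired analysis was possible because each group has 1 library. Of the values recomputed for the main results, 137 stayed within 1.5 times (counts) or within the interval (ratios and shares), 104 moved and 2 crossed 1; why was not tested unless stated. The ratio of MS to SS stayed above 1 and that of MM to MS below 1 under every alternative listed. Ratios of 2 libraries are written SM/SS and so on. Chosen within 10 equal classes by input, SM/SS was 0.983 (reversed) and MM/SS 0.999 (below 1, with an interval that includes 1), MS/SS 1.027 and MM/MS 0.972; 37.6% of members had an adjoining member, chromosome 10 had 8.43%, the richest input class held 20% by construction, 80.1% of 10 kb cells were above 1, and past the fold were 39 members higher and 114 lower for SM/SS (3.17% and 9.27%), 57 and 44 for MS/SS (4.63% and 3.58%), 27 and 54 for MM/SS (2.20% and 4.39%), and 26 and 57 for MM/MS (2.11% and 4.63%). Here, in the top 2 percent and with a library left out of the choice, the windows are the same, and past the fold were 5.84% and 14.1% of all kept windows for SM/SS, 4.42% and 12.5% for MS/SS, 4.08% and 9.92% for MM/SS, and 7.01% and 4.97% for MM/MS. Over all alternatives, the share of members reached that of all windows of the same kind for MS/SS higher alone. Scaled by windows below the median ratio, SM/SS was 1.077, MS/SS 1.108, MM/SS 1.059 and MM/MS 0.955, with 129 higher and 18 lower for SM/SS, 193 and 2 for MS/SS, 37 and 6 for MM/SS, and 4 and 51 for MM/MS; the report gives the shares of all kept windows on that scale. In the top 2 percent, a smaller set, SM/SS was 1.029 and MM/MS 0.973, with 15 higher and 11 lower for SM/SS (3.05% and 2.24%), 17 and 3 for MS/SS (3.46% and 0.610%), 4 and 3 for MM/SS (0.813% and 0.610%), and 3 and 6 for MM/MS (0.610% and 1.22%); 29.5% had an adjoining member in 414 blocks, chromosomes 10 and 12 had 5.65% and 5.03%, the richest input class 64.4%, and 92.1% of 10 kb cells were above 1. In 50 kb windows with 100 input tags, which are more numerous, SM/SS was 1.023, MS/SS 1.050 and MM/SS 1.024, with 153 higher and 141 lower for SM/SS, 236 and 72 for MS/SS, 114 and 75 for MM/SS, and 69 and 164 for MM/MS, where the shares of all such windows were 9.66% and 17.8%, 9.84% and 17.8%, 8.93% and 14.5%, and 13.4% and 11.0% in the same order, each above the members' share; 52.6% had an adjoining member in 1649 blocks, 56.6% were in the richest input class and 93.7% of 10 kb cells were above 1. Chosen on even and measured on odd cells, with fewer tags, MS/SS was 1.049 and MM/SS 1.025, with 88 higher and 61 lower for SM/SS, 120 and 38 for MS/SS, 51 and 31 for MM/SS, and 37 and 68 for MM/MS (all windows: 8.98% and 17.4%, 9.48% and 17.2%, 8.27% and 14.4%, and 12.7% and 10.4%, each above the members' share but for MS/SS higher, 9.76% of members), and 56.2% in the richest input class. With libraries weighted equally SM/SS was 1.027 and MM/MS 0.973. Shifted windows gave 27 higher in MM than in SS (2.20%, against 3.96% of all such windows). With 400 input tags, 4 were lower in MS than in SS (0.348% against 11.0%) and 90.8% of 10 kb cells were above 1. At a fold of 1.5, 1 member was lower in SM than in SS and 0 passed elsewhere. Joining members up to 1 Mb apart gave 426 blocks.

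When each library in turn was not used to choose members, SM/SS ranged from 1.014 to 1.045, MS/SS from 1.048 to 1.063, MM/SS from 1.021 to 1.039 and MM/MS from 0.969 to 0.983; the lowest value of SM/SS came without SM and the highest without SS. For SM, 24 to 64 members were past the fold above SS and 20 to 57 below it. For MS this was 47 to 77 (up to 6.27%, without SS) and 4 to 13, for MM 12 to 34 and 6 to 17, and for MM relative to MS 4 to 11 and 19 to 33. The counts that moved by over 1.5 times came without SM (24 and 57 for SM, 13 below for MS, 17 below for MM), without SS (4 below for MS, 34 and 6 for MM), without MS (11 below SS for MS, 11 above MS for MM) and without MM (17 below SS and 4 above MS for MM). An adjoining member was found for 45.7 to 50.1%, in 864 to 903 blocks, the richest input class held 55.4 to 63.6% of members, chromosome 10 had 11.0 to 11.9% and chromosome 12 had 10.5 to 12.1%, and 89.5 to 89.8% of 10 kb cells were above 1.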
